A study of Mus musculus with 6 samples.

Results

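The genes described here encode the protein parts of the spliceosome and the heterogeneous nuclear ribonucleoproteins (hnRNPs). They were taken by name: every gene whose symbol in the array annotation starts with Snrp, Hnrnp, Hnrp, Sf3a, Sf3b, Sfrs, Srsf or Prpf. The rule found 96 probe sets of 68 genes, and all 68 were among the 18238 genes tested. Their levels were compared between 3 m4PTB samples and 3 vehicle samples of injured kidney. All 6 samples came from male BALB/c mice aged 10 to 12 weeks, in which 1 kidney underwent 26 min of ischemia followed by reperfusion and the opposite kidney was removed. In the m4PTB group the mice received 100 mg/kg of m4PTB, methyl 4-(phenylthio)butanoate, an inhibitor of histone deacetylases, at 24 h after the injury. In the vehicle group they received a 20% solution of 2-(hydroxypropyl)-b-cyclodextrin in water at the same time. Kidneys were harvested 12 h after dosing, at day 1.5 after injury. They had been chosen for a similar degree of injury by serum creatinine, blood urea nitrogen and Kim1, so the groups stand for kidneys matched on injury and not for every treated animal. The series set m4PTB against vehicle in such kidneys.

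The spliceosome removes introns from newly made transcripts. It is built from small nuclear RNAs bound by a ring of Sm proteins, from proteins particular to each of these particles, and from a large set of Prp proteins that remodel it during the reaction. SR proteins bind exons and help the machinery to choose splice sites, and hnRNPs bind the nascent transcript and often act against them. Many SR and hnRNP genes also limit their own output by splicing their transcripts into forms that are degraded.

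Values are log2 signals, on which a difference of 1 is a doubling, and each difference is m4PTB minus vehicle. The signals describe RNA of the whole kidney, in which fewer cells of a type and less RNA per cell cannot be told apart. A signal was taken as standing above background where it was brighter than 90% of its array's negative controls (a log2 mark of 7.73 to 7.86), and 62 of the 68 genes did so on at least 3 arrays. Of 9 markers of kidney segments, 8 stood above that mark on at least 3 arrays; the podocyte gene Nphs1 did so on 0 arrays.

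The array of vehicle replicate 3 stood apart from the rest. Its mean correlation with the other arrays was 0.987, against 0.993 to 0.994 for the others. It was the lowest of the 6 arrays for 47 of the 68 genes (69.1%), compared with 34.0% of all genes and 51.5% of the 8083 genes above the background mark on at least 3 arrays. Single-gene differences that moved by over 1.5 times when it was left out are therefore given both ways.

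The promoters of 7 of these genes are shown. These genes had an unadjusted p under 0.05 by limma, or separate groups with m4PTB lower, and a single promoter in the table used. Hnrnph1, Hnrnpul2 and Snrpn met the condition on p or separation but did not have a single promoter there, so they are not shown. Of the 7, 6 were higher in m4PTB samples, and Snrpd3, printed last, was lower on every m4PTB array. Each sequence is the 150 bases before the start site annotated in RefSeq (GRCm38.p6), 5′ to 3′ on the gene's strand. Capitals mark the motifs searched on both strands, namely the GC box (GGGCGG), the CCAAT box (CCAAT), the ETS site (CCGGAAG), the E2F site (TTCCCGCC) and the TATA box (TATAAA).
Hnrnpa1, chr15:103240247-103240396, plus strand: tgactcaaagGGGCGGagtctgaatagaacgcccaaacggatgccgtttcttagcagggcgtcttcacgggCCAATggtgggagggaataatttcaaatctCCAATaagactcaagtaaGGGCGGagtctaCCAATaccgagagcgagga
Hnrnpa3, chr2:75659109-75659258, plus strand: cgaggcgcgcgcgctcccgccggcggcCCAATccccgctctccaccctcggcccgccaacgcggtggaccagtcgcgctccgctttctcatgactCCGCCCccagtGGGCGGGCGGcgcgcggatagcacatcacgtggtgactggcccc
Hnrnpa0, chr13:58128557-58128706, minus strand: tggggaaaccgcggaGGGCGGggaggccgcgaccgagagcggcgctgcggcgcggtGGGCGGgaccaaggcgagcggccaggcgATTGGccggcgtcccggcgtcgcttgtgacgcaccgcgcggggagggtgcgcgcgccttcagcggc
Prpf38b, chr3:108911730-108911879, minus strand: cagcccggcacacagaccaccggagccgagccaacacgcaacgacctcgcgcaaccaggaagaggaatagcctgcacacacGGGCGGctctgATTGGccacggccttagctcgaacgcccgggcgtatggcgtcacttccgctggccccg
Srsf1, chr11:88047223-88047372, plus strand: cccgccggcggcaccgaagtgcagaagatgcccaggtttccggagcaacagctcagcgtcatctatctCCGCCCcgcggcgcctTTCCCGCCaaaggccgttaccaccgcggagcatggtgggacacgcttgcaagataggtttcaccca
Srsf7, chr17:80207306-80207455, minus strand: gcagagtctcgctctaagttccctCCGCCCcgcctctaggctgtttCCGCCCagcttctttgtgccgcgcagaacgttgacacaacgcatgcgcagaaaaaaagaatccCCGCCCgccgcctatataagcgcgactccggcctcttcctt
Snrpd3, chr10:75517892-75518041, plus strand: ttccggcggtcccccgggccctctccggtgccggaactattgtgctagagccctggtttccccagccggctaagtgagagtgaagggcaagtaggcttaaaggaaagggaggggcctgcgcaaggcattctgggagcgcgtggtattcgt
Overlapping matches were merged, as in the run of 2 GC boxes in Hnrnpa3. The promoter of Hnrnpa1 held 5 matches, 2 GC boxes and 3 CCAAT boxes, and that of Hnrnpa3 held 4. The stretch of Srsf1 held an E2F site beside a GC box, that of Srsf7 held 3 GC boxes, and that of Snrpd3 held none of these letters.

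Of the 68 genes, 59 had a promoter in the RefSeq table (250 bases before to 50 after the start). A gene was counted where any of its promoters there held the motif. A GC box was present in 41 (69.5%), against 38.2% of all 27025 genes in that table. That table holds more genes than the 18238 tested. Shares among the tested genes, or among those above the background mark, were not computed. An ETS site was present in 20 (33.9%, against 9.93% of all genes in the table) and an E2F site in 9 (15.3%, against 2.52%). CCAAT boxes were in 29 (49.2%, against 41.1%) and TATA boxes in 7 (11.9%, against 15.7%). The median log2 difference between m4PTB and vehicle was 0.06 for the genes with an ETS site and 0.11 for those without. It was 0.06 with and 0.10 without an E2F site, 0.09 with and 0.07 without a GC box, 0.08 with and 0.09 without a CCAAT box, and 0.12 with and 0.08 without a TATA box. These medians are a description and were not tested.

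Most of the 68 genes had slightly higher signals in m4PTB samples. The difference was above 0 for 63 genes (92.6%, against 54.5% of all genes and 66.0% of those above the background mark). Where the median of the tested genes was first subtracted from each array, it was above 0 for 42 genes, against 34.5% of all genes. It was below 0 for 5 on the deposited scale, which were Snrpn, Srsf12, Snrpa, Snrpd3 and Snrpe. The median difference was 0.09, against 0.01 over all genes and 0.04 over the genes above the background mark, and the range was -0.17 to 0.31. The mean signal over the 68 genes was 9.05, 9.04 and 9.04 in m4PTB samples, against 8.98, 9.0 and 8.87 in vehicle samples. Every m4PTB mean thus lay above every vehicle mean, and vehicle replicate 3 was the farthest below.

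No gene of the 68 passed an adjusted p of 0.05 by limma with Benjamini-Hochberg adjustment over all genes, and the smallest adjusted p among them was 0.626. Across all 18238 genes the share past that threshold was 0.0%, the smallest adjusted p being 0.495. At an unadjusted p under 0.05, 8 of the 68 were higher in m4PTB samples (11.8%, against 4.67% of all genes and 4.64% of those above the background mark) and 0 were lower (against 2.56%). These 8 were Hnrnpa3, Hnrnph1, Hnrnpa1, Srsf1, Hnrnpa0, Srsf7, Prpf38b and Hnrnpul2. All 3 m4PTB values lay above all 3 vehicle values for 14 genes (20.6%, against 9.38% of all genes and 12.3% of those above the background mark). The opposite held for 2 genes, Snrpn and Snrpd3 (2.94%, against 5.21% and 4.85%).

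Without vehicle replicate 3, 53 of the 68 differences remained above 0 (77.9%, against 55.9% of all genes and 53.2% of those above the background mark). The median then was 0.05, against 0.01 over all genes and also 0.01 over those above the mark. At an unadjusted p under 0.05 by limma, 2 genes were higher, Hnrnpa3 and Hnrnph1, and 0 were lower (4.3% and 1.99% of all genes). The m4PTB values lay above both remaining vehicle values for 16 genes (23.5%, against 14.1%) and below them for the same 2 genes (2.94%, against 8.56%).

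**Figure D1:**
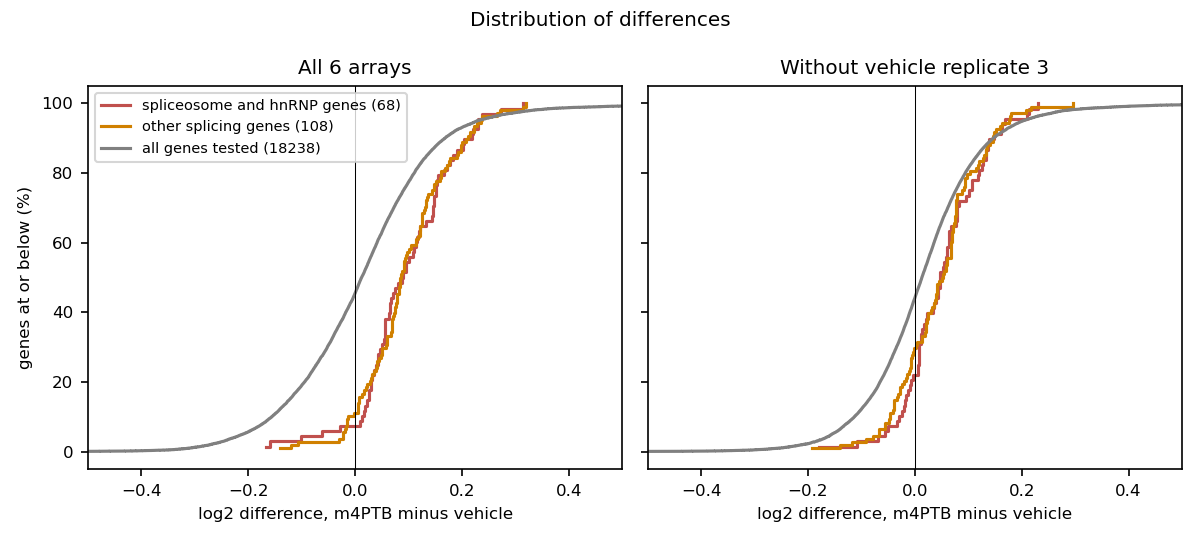
Cumulative share of genes (percent, vertical axis) at or below each log2 difference of m4PTB minus vehicle (horizontal axis), with all 6 arrays on the left and without vehicle replicate 3 on the right. The curve of the 68 genes lies to the right of that of all 18238 genes over most of its course, with a median of 0.09 against 0.01 on the left and 0.05 against 0.01 on the right; the curve of the 108 other splicing genes runs close to it.

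The hnRNP genes had the highest of the 5 family medians, and after subtracting the median of the tested genes they had it too, at 0.07. On the deposited scale, all 20 differences were above 0, with a median of 0.13 (0.08 and 19 of 20 without vehicle replicate 3). The group of A/B and D proteins, which bind RNA through paired RNA recognition motifs, had 7 of 7 above 0 and a median of 0.19 (0.12 and 7 of 7 without that array).

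Hnrnpa1 encodes the best known hnRNP, which binds exonic and intronic silencers. Its log2 signal was 10.57, 10.41 and 10.35 in m4PTB samples, against 10.09, 10.33 and 9.96 in vehicle samples. The groups did not overlap, although m4PTB replicate 3 and vehicle replicate 2 lay close together. The difference of 0.31 ± 0.11 (SE), a 1.24-fold level, was the largest of the 68, with a 95% interval of 0.06 to 0.57 and an adjusted p of 0.679 by limma. Without vehicle replicate 3 it was 0.23.

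Hnrnpa3, a close relative of Hnrnpa1, had signals of 11.29, 11.26 and 11.38 in m4PTB samples, against 11.10, 11.10 and 10.92 in vehicle samples. Its 3 m4PTB values were all above the vehicle values, with vehicle replicate 3 lowest. The difference was 0.27 ± 0.08, or 1.21-fold (95% interval 0.09 to 0.45), with the smallest p of the 68 genes (unadjusted p = 0.00863, adjusted p = 0.626 by limma). It was 0.21 without vehicle replicate 3. The array carries 9 probe sets named for this gene, and their differences ran from 0.24 to 0.27. All but 1 are annotated to RefSeq transcripts of this 1 gene, and 2 of the 9 gave identical values. They were therefore not counted as separate measurements.

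Hnrnpa0 encodes an intronless member of this family that binds AU-rich elements. Its signals were 8.03, 8.01 and 7.85 in m4PTB samples, against 7.88, 7.63 and 7.70 in vehicle samples. The groups overlapped, because vehicle replicate 1 was above m4PTB replicate 3. Hnrnpa0 stood above the background mark on 3 of the 6 arrays, with m4PTB replicate 3 and vehicle replicates 2 and 3 below it. The difference was 0.23 ± 0.09 (adjusted p = 0.679 by limma; exact two-sided permutation p = 0.2, where the smallest possible is 0.1), and 0.21 without vehicle replicate 3. Hnrnpab, a CArG box binding factor, had 10.99, 10.97 and 10.93 in m4PTB samples, against 10.80, 10.89 and 10.63 in vehicle samples. Its groups did not overlap, with a difference of 0.19 (0.12 without vehicle replicate 3).

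The other members of the group differed less. Hnrnpa2b1, a partner of Hnrnpa1 in hnRNP particles, had 9.71, 9.98 and 10.10 in m4PTB samples, against 9.91, 9.93 and 9.78 in vehicle samples. Its m4PTB values spanned all the vehicle values, and the difference was 0.06 ± 0.11, with a 95% interval of -0.19 to 0.31 (-0.0018 with the median of the tested genes subtracted). Without vehicle replicate 3 it was 0.0083. Hnrnpd, known as AUF1, and its relative Hnrnpdl differed by 0.06 and 0.03, and without that array by 0.0055 and 0.059.

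The F and H proteins bind runs of G, and all 4 of their genes had differences above 0 (median 0.11, and 0.10 without vehicle replicate 3). Hnrnph1 had 9.51, 9.54 and 9.53 in m4PTB samples, against 9.36, 9.36 and 9.19 in vehicle samples. The 3 m4PTB values lay close together and above all vehicle values. The difference was 0.22 ± 0.07, or 1.17-fold (unadjusted p = 0.0177, adjusted p = 0.668 by limma), and 0.16 without vehicle replicate 3. Hnrnph3 was 0.15 higher with overlapping groups, and Hnrnph2 and Hnrnpf 0.06 and 0.07 higher; without vehicle replicate 3 these were 0.13, 0.02 and 0.06. A further probe set of Hnrnpf, below the background mark on all arrays, gave -0.25, while 4 others gave 0.02 to 0.07.

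The remaining 9 hnRNP genes all had differences above 0 (median 0.12), and 8 did without vehicle replicate 3, where the median was 0.02. Hnrnpul2, a relative of the scaffold attachment protein hnRNP U, had 10.21, 10.21 and 10.16 in m4PTB samples, against 10.08, 10.04 and 10.00 in vehicle samples. The groups were separate, and the difference was 0.16 ± 0.06 (unadjusted p = 0.0417, adjusted p = 0.685 by limma). Hnrnpu itself had 11.16, 11.14 and 11.14 in m4PTB samples, against 11.04, 11.07 and 10.89 in vehicle samples, again without overlap. Hnrnpc, whose product binds U tracts and forms the core of hnRNP particles, had 8.75, 8.76 and 8.56 in m4PTB samples, against 8.55, 8.57 and 8.23 in vehicle samples. Vehicle replicate 2 was slightly above m4PTB replicate 3, and the difference of 0.24 ± 0.11 was 0.13 without vehicle replicate 3. Hnrnpk, which binds C-rich stretches, had the highest signal of the family, with 11.60, 11.61 and 11.60 in m4PTB samples, against 11.57, 11.60 and 11.41 in vehicle samples. Its difference of 0.08 ± 0.07 rested on vehicle replicate 3 and was 0.02 without it.

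**Figure D2:**
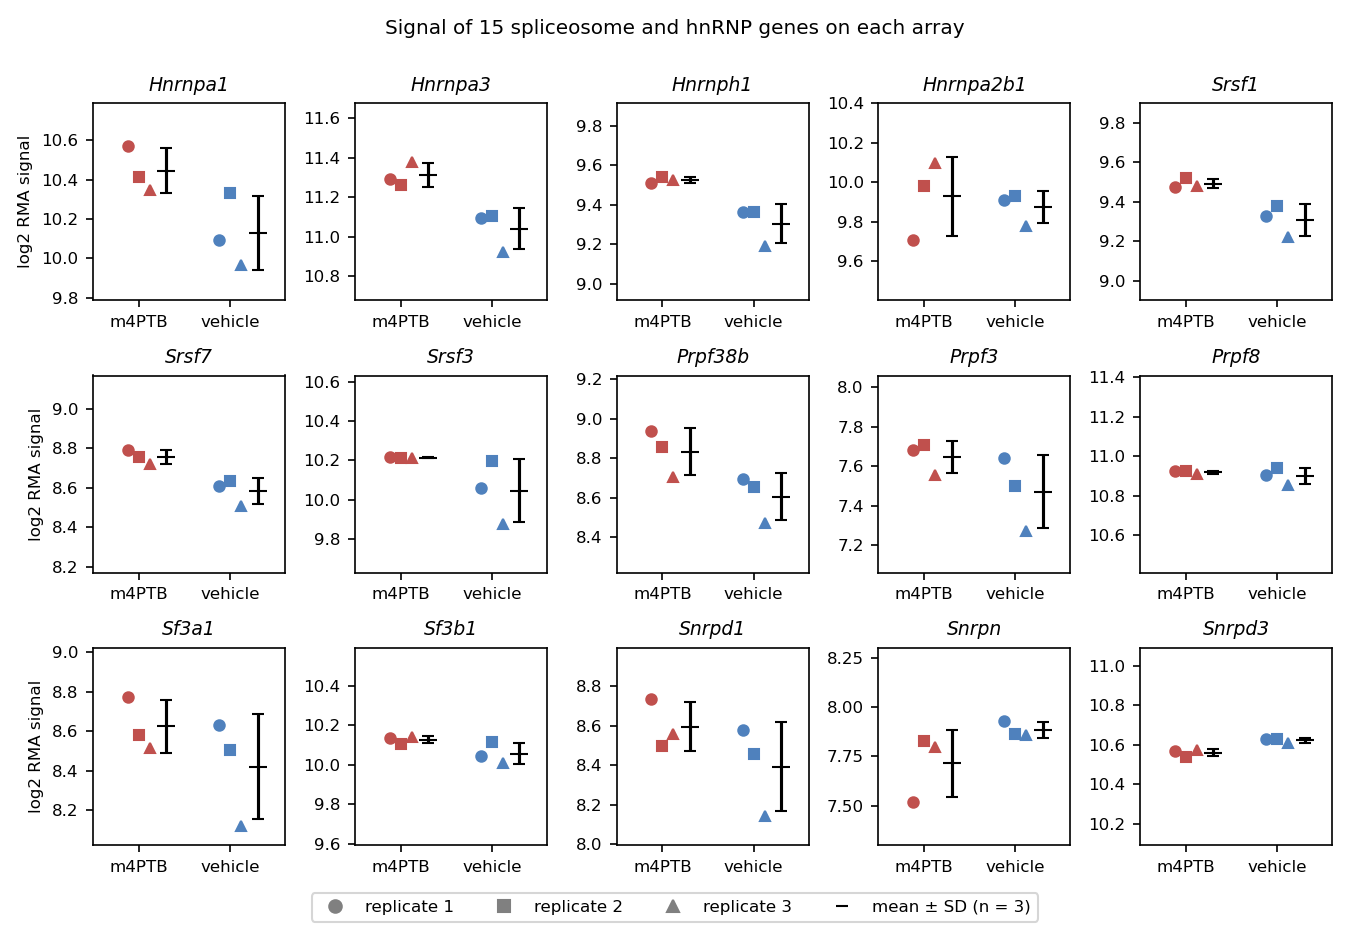
Log2 RMA signal (vertical axis) of 15 of the genes on each array, with m4PTB on the left and vehicle on the right of each panel, marker shapes for the replicate number, and bars for the mean ± SD of the 3 arrays; every panel spans the same number of log2 units, around its own level. The m4PTB values of Hnrnpa3, Hnrnph1, Srsf1 and Srsf7 lie above all vehicle values, Hnrnpa2b1 and Prpf8 overlap, and those of Snrpn and Snrpd3 lie below.

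The 15 Sfrs and Srsf genes had a median of 0.09 (0.04 without vehicle replicate 3), against 0.10 (0.06) for the Prpf genes. The 8 canonical SR proteins each join RNA recognition motifs to an arginine and serine rich tail, and all 8 genes had differences above 0, with a median of 0.12 (0.06 without vehicle replicate 3, again 8 of 8). Srsf1, the founding member, which binds exonic enhancers, had 9.47, 9.52 and 9.48 in m4PTB samples, against 9.33, 9.38 and 9.22 in vehicle samples. The groups were separate and the m4PTB values tightly grouped. The difference was 0.18 ± 0.07, or 1.14-fold (unadjusted p = 0.0317, adjusted p = 0.679 by limma), and 0.14 without vehicle replicate 3.

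Srsf7, an SR protein with a zinc knuckle, had 8.79, 8.75 and 8.72 in m4PTB samples, against 8.61, 8.63 and 8.51 in vehicle samples. It too showed no overlap, and the difference was 0.17 ± 0.07 (unadjusted p = 0.0377, adjusted p = 0.679 by limma), or 0.13 without vehicle replicate 3. Srsf3, the smallest SR protein, had 10.22, 10.21 and 10.21 in m4PTB samples, against 10.06, 10.20 and 9.88 in vehicle samples. Vehicle replicate 2 came close to the m4PTB values, and the difference of 0.17 ± 0.09 was 0.08 without vehicle replicate 3. A dimmer probe set of Srsf3, below the background mark on all arrays, gave 0.51 ± 0.22, and another, dimmer than the one used but above the mark on all arrays, gave 0.15.

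Srsf6 was 0.12 higher without overlap. Srsf2, also known as SC35 and a marker of nuclear speckles, had 10.58, 10.43 and 10.37 in m4PTB samples, against 10.34, 10.49 and 10.21 in vehicle samples. The groups overlapped, with a difference of 0.11 ± 0.10 (0.04 without vehicle replicate 3). Srsf9, Srsf5 and Srsf4 were 0.09, 0.05 and 0.04 higher, all with overlap, and 0.03, 0.02 and 0.04 higher without vehicle replicate 3.

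The 7 SR-related genes had a median of 0.04, with 6 above 0. Without vehicle replicate 3 the median was -0.013 and 3 of the 7 were above 0. Srek1, which the array names Srsf12, had 8.98, 8.96 and 9.0 in m4PTB samples, against 8.94, 8.78 and 8.79 in vehicle samples. Its groups did not overlap, and the difference of 0.14 ± 0.07 was 0.12 without vehicle replicate 3. The gene now called Srsf12, named Srsf13b on the array, was the dimmest of the 68 and the nearest to the filter of log2 5. It had 5.66, 5.42 and 5.56 in m4PTB samples, against 5.54, 5.77 and 5.81 in vehicle samples, all below the background mark. Its difference was -0.16 ± 0.10, and leaving out 1 array gave -0.11 (vehicle replicate 3) and -0.095 (m4PTB replicate 2). None of the 68 genes fell under that filter, so no value lies just outside it. Srsf10, a splicing repressor, was 0.15 higher with overlap, and Scaf11, Pnisr, Scaf4 and Srsf11 differed by 0.09, 0.04, 0.02 and 0.01. With vehicle replicate 3 left out, Srsf10 and Scaf11 were 0.06 and 0.08 higher, and the differences of Pnisr, Scaf4 and Srsf11 turned to -0.02, -0.03 and -0.01.

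The 13 Prpf genes all had differences above 0, with a median of 0.10 (0.06 and 10 of 13 without vehicle replicate 3). The 5 that encode proteins of the U4/U6.U5 particle had a median of 0.11 (0.06 and 4 of 5 above 0 without vehicle replicate 3). Prpf3, 1 of these, had 7.68, 7.71 and 7.56 in m4PTB samples, against 7.64, 7.50 and 7.27 in vehicle samples. It was below the background mark on all arrays and its groups overlapped, with a difference of 0.18 ± 0.10 (0.08 without vehicle replicate 3). Prpf31 and Prpf4 of the same particle were 0.12 and 0.11 higher, and Prpf6, a bridging protein, 0.06 higher, all with overlap; without vehicle replicate 3 these were 0.12, 0.06 and 0.05. Prpf8, the protein at the catalytic centre, had 10.92, 10.92 and 10.91 in m4PTB samples, against 10.90, 10.94 and 10.86 in vehicle samples. These values nearly coincide: the difference was 0.02 ± 0.06, with a 95% interval of -0.13 to 0.17. With the median of the tested genes subtracted it was -0.038 and the groups were separate, and without vehicle replicate 3 it was -0.0029.

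Of the 8 other Prpf genes, 3 showed no overlap, with m4PTB higher (against 9.38% of all genes and 12.3% of those above the background mark). Prpf38b had 8.94, 8.86 and 8.71 in m4PTB samples, against 8.69, 8.65 and 8.47 in vehicle samples. The value of m4PTB replicate 3 was only just above vehicle replicate 1, and the difference was 0.23 ± 0.09 (unadjusted p = 0.0385, adjusted p = 0.679 by limma), or 0.16 without vehicle replicate 3. The kinase gene Prpf4b was 0.10 higher, also without overlap. Prpf39 differed by 0.15, Prpf18, a factor of the second splicing step, by 0.06, Prpf19, a ubiquitin ligase, by 0.04, Prpf40b by 0.04 and Prpf38a by 0.03, all with overlap. The difference of Prpf39 without vehicle replicate 3 was 0.05 and that of Prpf40b 0.11. Those of Prpf18 and Prpf19 turned to -0.06 and -0.0071, and that of Prpf38a was 0.01.

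The 8 genes of SF3a and SF3b, which hold the U2 particle on the branch point, all had differences above 0, but each overlapped between groups. Their median was 0.06, and 0.04 without vehicle replicate 3. Sf3a1 had 8.78, 8.58 and 8.52 in m4PTB samples, against 8.63, 8.51 and 8.12 in vehicle samples. Vehicle replicate 3 was far below the other arrays, and the difference of 0.20 ± 0.14 was 0.05 without it. Sf3b3 had 10.00, 9.88 and 9.85 in m4PTB samples, against 9.82, 9.86 and 9.65 in vehicle samples, a difference of 0.13 ± 0.08 that was 0.07 without vehicle replicate 3. Sf3b1, the subunit that contacts the branch point, had 10.13, 10.11 and 10.14 in m4PTB samples, against 10.05, 10.11 and 10.01 in vehicle samples. Its m4PTB replicate 2 and vehicle replicate 2 were nearly equal, and the difference was 0.07 ± 0.07 (0.05 without vehicle replicate 3). Sf3a2 was 0.11 higher, Sf3b2 and Sf3b5 0.05, Sf3a3 0.03 and Sf3b4 0.02. Leaving out vehicle replicate 3, Sf3a2 was 0.05 higher, Sf3b2 0.01, Sf3a3 0.0071 and Sf3b4 0.04, and Sf3b5 turned to -0.0095.

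The Snrp genes were the least uniform family. Of 12, 8 had differences above 0 and the median was 0.05, which became -0.0058 without vehicle replicate 3, with 6 of 12 above 0, and -0.0097 with the median of the tested genes subtracted. Among the 8 genes of the Sm ring, Snrpd2 had 9.21, 9.10 and 9.0 in m4PTB samples, against 8.86, 9.01 and 9.0 in vehicle samples. It overlapped, with a difference of 0.15 ± 0.08 (0.17 without vehicle replicate 3, 0.09 without m4PTB replicate 1), and 5 probe sets of the gene gave 0.09 to 0.19. Those that gave 0.19 and 0.17, dimmer than the one used, had separate groups with m4PTB higher. Their unadjusted p was 0.045 and 0.048 by limma over all probe sets used, and the adjusted p of each was 0.702. The others overlapped. Snrpd1 had 8.73, 8.50 and 8.56 in m4PTB samples, against 8.58, 8.46 and 8.15 in vehicle samples, a difference of 0.20 ± 0.12 that was 0.08 without vehicle replicate 3. Snrpf, Snrpb and Snrpg were 0.10, 0.09 and 0.06 higher with overlap, and 0.15, 0.06 and 0.0052 higher without vehicle replicate 3. Snrpe had 9.26, 9.54 and 9.72 in m4PTB samples, against 9.69, 9.42 and 9.49 in vehicle samples, so its m4PTB values spanned all the vehicle values, with a difference of -0.03 ± 0.13 (-0.05 without vehicle replicate 3).

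The 2 genes with lower values in every m4PTB sample both encode Sm proteins. Snrpn encodes SmN, a relative of SmB read from the paternal chromosome and abundant in neurons. It had 7.52, 7.83 and 7.80 in m4PTB samples, against 7.93, 7.86 and 7.86 in vehicle samples. The value of m4PTB replicate 1 was well below the rest and the other values lay close together. Snrpn was near background: it stood above the background mark on 4 of the 6 arrays, with m4PTB replicates 1 and 3 below it. The difference was -0.17 ± 0.09, or 0.89-fold, with a 95% interval of -0.39 to 0.05 and an adjusted p of 0.692 by limma. It was -0.07 without m4PTB replicate 1 and -0.18 without vehicle replicate 3. The neuronal genes Snap25, Syt1 and Tubb3 were below the background mark on every array. Snrpd3 had 10.57, 10.54 and 10.57 in m4PTB samples, against 10.63, 10.63 and 10.61 in vehicle samples. The groups were separate by a small gap, with a difference of -0.06 ± 0.06 (adjusted p = 0.775 by limma) that was -0.07 without vehicle replicate 3.

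The 4 genes for proteins particular to the U1 and U2 particles had a median of 0.02 with 3 above 0, which turned to -0.017 with 1 above 0 without vehicle replicate 3. Snrpa, the U1 protein A, had 9.45, 9.42 and 9.36 in m4PTB samples, against 9.42, 9.44 and 9.66 in vehicle samples. Here vehicle replicate 3 was the highest array, and the difference of -0.10 ± 0.08 was -0.02 without it. Snrpa1 was 0.15 higher, and Snrpb2 and Snrpc differed by 0.03 and 0.01, all with overlap. Snrpa1 without vehicle replicate 3 was 0.04 higher, and the differences of Snrpb2 and Snrpc turned to -0.018 and -0.017.

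**Figure D3:**
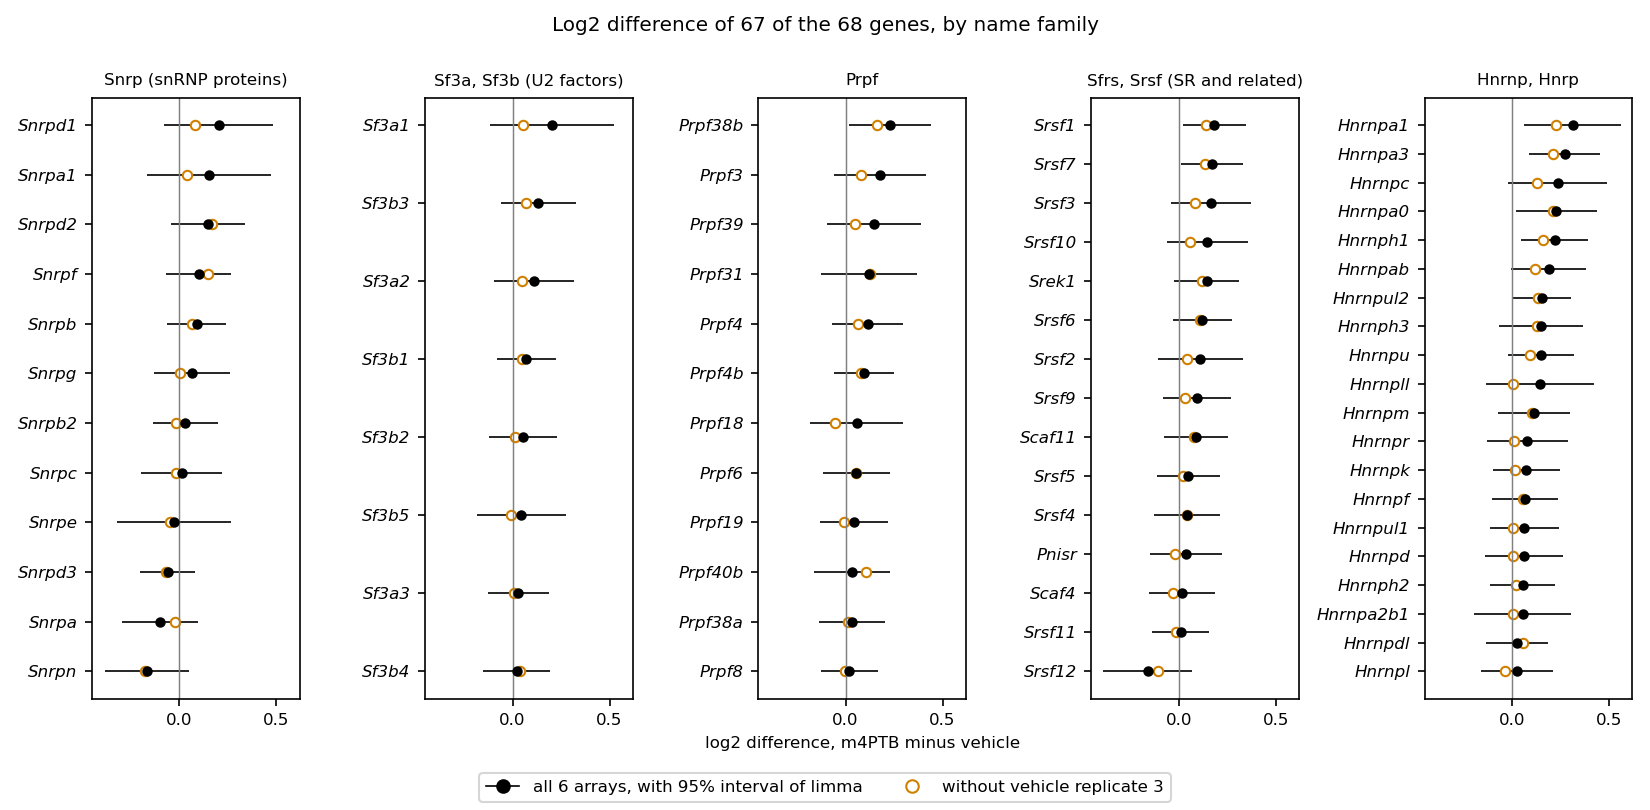
Log2 difference of m4PTB minus vehicle (horizontal axis) of 67 of the 68 genes, in 5 name families, with black points and 95% intervals from all 6 arrays and open circles without vehicle replicate 3. All 20 hnRNP genes, the 12 Prpf genes drawn and all 8 SF3 genes lie above 0 with all 6 arrays on the deposited scale, and for many the open circle lies nearer to 0.

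Several of these genes have near-identical processed copies elsewhere in the genome, and 12 had more than 1 probe set. The annotation used here gives no probe positions, so a probe set named for Hnrnpa1, Hnrnpa3 or Srsf3 may also read such copies. The probe sets of 3 genes, Hnrnpf, Sf3b4 and Snrpc, differed in sign among themselves.

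Other splicing genes, outside these name prefixes, had values of the same order. Of 110 listed genes 108 were measured, and 96 were higher in m4PTB samples, with a median of 0.08 (0.05 and 76 of 108 without vehicle replicate 3). None passed the adjusted threshold, 13 were higher at an unadjusted p under 0.05 by limma (12.0%, against 4.67% of all genes) and 0 were lower (against 2.56%). The m4PTB values lay above all vehicle values for 26 (24.1%, against 9.38% of all genes and 12.3% of those above the background mark) and below for 0 (against 5.21%). Without vehicle replicate 3, 28 lay above (25.9%, against 14.1%) and 4 below (3.7%, against 8.56%). By part, 17 of 20 genes of the catalytic core were higher in m4PTB samples (13 without vehicle replicate 3), as were 27 of 28 splicing regulators (21) and 21 of 23 genes of the U1, U11/U12 and U4/U6.U5 particles (19). The same held for 8 of 11 genes for recognition by U2 (5, with a median of -0.0012), 13 of 15 for assembly of the particles (10), 5 of 5 of the exon junction complex (4) and 5 of 6 SR protein kinases (4). Over all genes 54.5% were higher, and 55.9% without that array.

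The 5 of smallest p in that list were Lsm5, Cdc5l, Rbm8a, Slu7 and Gemin6. Cdc5l, a scaffold of the catalytic core, had 8.40, 8.49 and 8.30 in m4PTB samples, against 8.24, 8.12 and 8.02 in vehicle samples. Rbm8a, a subunit of the exon junction complex, had 9.22, 9.24 and 9.30 in m4PTB samples, against 9.09, 9.11 and 8.93 in vehicle samples. Neither overlapped, and the differences were 0.27 and 0.21. Slu7, a factor of the second splicing step, was 0.24 higher without overlap. The differences of Cdc5l, Rbm8a and Slu7 without vehicle replicate 3 were 0.22, 0.15 and 0.15. Lsm5 and Gemin6, below the background mark on all arrays, were 0.22 and 0.31 higher.

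Genes of other kinds were also higher in m4PTB samples. All 15 markers of dividing cells were higher in m4PTB samples at an unadjusted p under 0.05 by limma (smallest adjusted p 0.527), against 4.67% of all genes. Their median difference was 0.68 (0.57 without vehicle replicate 3), and 14 of 15 showed no overlap, against 9.38% of all genes. Their mean signal was 9.02, 8.85 and 8.57 in m4PTB samples, against 8.09, 8.40 and 7.74 in vehicle samples. All 8 macrophage markers were higher, with a median of 0.17 that was 0.06 without vehicle replicate 3, and 4 of the 8 stood above the background mark on at least 3 arrays. Their mean ran from 7.80 to 8.07 in m4PTB samples and from 7.52 to 7.95 in vehicle samples. The 9 kidney segment markers had a median of -0.08, with means of 11.33 to 11.44 in m4PTB samples and 11.45 to 11.48 in vehicle samples. The 4 T and NK cell markers measured and the 2 neutrophil markers measured were below the background mark on all arrays. The part of dividing cells or macrophages in the values of the splicing genes was not tested.

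**Figure D4:**
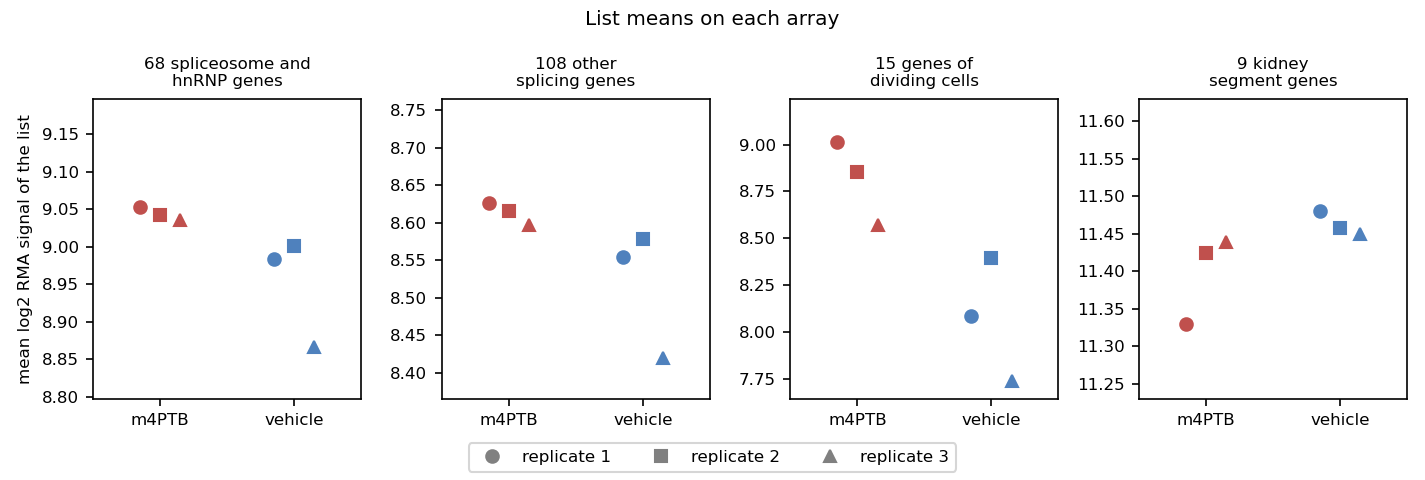
Mean log2 RMA signal (vertical axis, on its own scale in each panel) of 4 gene lists on each array, with m4PTB on the left, vehicle on the right and marker shapes for the replicate number. The 68 genes, the 108 other splicing genes and the 15 markers of dividing cells lie higher on all 3 m4PTB arrays, with vehicle replicate 3 lowest, and the 9 kidney segment markers lie lower.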

How the data were processed

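Whole kidney RNA, 10 ug per sample, was measured on Affymetrix Mouse Gene 1.0 ST arrays. The deposited values are the authors' log2 signals per probe set; the submitters' processing notes name Affymetrix Expression Console 1.1 and RMA. That method subtracts background, equalises the distributions of the arrays and combines probes by median polish, which hides a shift of most genes. Values came from the deposited value table of 35556 probe sets. Symbols came from the annotation of the full RMA table, whose 6 signal columns match no sample's labels and were not used. Symbols of 22267 probe sets were looked up in RefSeq (GRCm38.p6), which changed 2268 names. The rule for the 68 genes was applied to the file's own symbols, so it includes genes now called Srek1, Scaf11, Scaf4 and Pnisr.

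A probe set was used where it had 1 symbol and reached log2 5 on 3 or more arrays (20968 did). Each gene took its probe set of highest mean (18238 genes), and the 6559 control probe sets entered no test. The comparison was fitted with limma 3.58.1 (lmFit, eBayes, no covariate) in R 4.3.3, with Benjamini-Hochberg adjustment over all genes and a threshold of 0.05, and the fit was tested on simulated data. An exact permutation test over samples, two-sided, was run for single genes (smallest p 0.1). Arrays have no sequencing depth, and their number, 3 per group, limits the precision. The labels number the replicates but say nothing of separate animals, so p-values cover only the variation among these 6 arrays, part of which may be technical. Same-numbered samples of the groups did not deviate together (correlations of -0.13, -0.05 and -0.08), so the numbers were not used as pairs.

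Genes were named by a rule: per name family the 3 of smallest p and the 1 of highest mean signal, the 5 largest differences in each direction, 8 well known genes, and the gene nearest the filter; of the other splicing genes, the 5 of smallest p. Further genes without overlap between groups, and the smaller differences given within each role, were chosen after their values were seen. The values of 1 Prpf gene, which stays in every count, are not reported here. The members, the lists and the rules were chosen with earlier results of these data known. Alternatives covered the filter, centring, cyclic loess, array weights, variance settings, the choice of probe set, updated symbols, a replicate block and leaving out each array.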

Additional observations from a re-analysis of the deposited data

How the results depend on the processing

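Under all 16 alternatives 0 genes passed an adjusted p of 0.05 by limma, members included, and the median difference of the 68 genes stayed above 0. Leaving out each array in turn gave a median of 0.05 to 0.11, and 0.05 to 0.12 for the other splicing genes. With 1 array left out, the number higher at an unadjusted p under 0.05 ran from 2 (without vehicle replicate 3) to 8. It was 3 without m4PTB replicate 1 (Hnrnpa3, Hnrnph1 and Hnrnph3) and 3 without m4PTB replicate 2 (Hnrnpa1, Hnrnpa3 and Prpf31). The number lower ran from 0 to 1 (Srsf12, without vehicle replicate 1). Of all 18238 genes, 843 to 1807 passed in either direction. Separate groups, which are easier to reach with fewer arrays, numbered 16 to 27 higher and 2 to 3 lower. The share of all genes with separate groups was computed only on the deposited scale, with all 6 arrays and without vehicle replicate 3. Subtracting each array's median left 5 higher at an unadjusted p under 0.05 (1239 of all genes in either direction) and 0 separate and lower. Subtracting the median of the tested genes, chosen after seeing the data, moved the median of all genes to -0.05 and left 42 of 68 members above 0 (34.5% of all genes). It gave 3 higher (Hnrnpa1, Hnrnpa3 and Hnrnph1) and 1 lower (Snrpn) at an unadjusted p under 0.05, where 1505 of all genes passed in either direction. Separate groups then numbered 7 higher and 5 lower (Prpf8, Snrpa, Snrpd3, Snrpn and Srsf11). With cyclic loess 52 members lay above 0, and with array weights 54. A replicate block, which the labels do not call for, gave 6 genes higher at an unadjusted p under 0.05 in place of 8. Of all genes, 1105 passed in either direction in place of 1318. The smallest member adjusted p with the block was 0.759 by limma. The Snrp median reversed to -0.0097 with the tested-gene median subtracted, -0.00071 with cyclic loess, -0.0034 with array weights and -0.0058 without vehicle replicate 3 (leave-one-out range -0.0058 to 0.088). With the tested-gene median subtracted, Hnrnpa2b1 was -0.0018 and Prpf8 -0.038; leaving out single arrays gave -0.029 to 0.17 for Hnrnpa2b1, -0.0029 to 0.038 for Prpf8 and -0.13 to 0.094 for Snrpe. Apart from vehicle replicate 3, for which values are given, the cause was not tested. Of the 68 genes, 6 were too dim to stand above background on 3 arrays, where differences may be compressed, which was not tested.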
